A study of Mus musculus with 12 samples.

Results

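Of the 56980 genes in the deposited count table, 7 genes listed under tissue exit and lymph node homing are described here. They were picked by their symbols, with earlier results of these data known. They are S1pr1, S1pr4 and S1pr5, which encode receptors for the lipid sphingosine-1-phosphate (S1P), the transcription factor gene Klf2, the activation antigen gene Cd69, the chemokine receptor gene Ccr7, and Gpr183, which encodes the oxysterol receptor EBI2. Each symbol matched 1 row, and all 7 passed the filter on low counts that left 20411 genes to test. The libraries came from tumours of wild-type C57BL/6J mice, from live (DAPI-negative) CD45.2+ CD8+ cells divided by asialo-GM1 (asGM1), a glycolipid of the cell surface. There were 4 groups of 3 libraries. Cells sorted as asGM1-positive or as asGM1-negative came from Flt3L Panc02 tumours, grown from Panc02 mouse pancreatic cancer cells that express the dendritic cell growth factor Flt3L, and likewise from unmodified Panc02 tumours. All groups share the strain, the genotype and the sort for live CD45.2+ CD8+ cells, and they differ in the asGM1 gate and the tumour. The labels name no T cell receptor marker in the sort, give neither the age of the mice nor any pooling, and do not tie replicates to separate mice, so p-values measure only the spread between these samples, which may be technical.

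As background, S1P is scarce inside tissues and abundant in lymph and blood, and a T cell that carries S1PR1 can follow that gradient out of a tissue. KLF2, made under the control of FOXO1 in resting T cells, drives transcription of S1pr1. The CD69 protein binds S1PR1 and removes it from the cell surface, which holds recently activated and tissue-resident cells in place. CCR7 guides T cells and mature dendritic cells towards the chemokines CCL19 and CCL21 of lymph nodes, and EBI2 guides lymphocytes and dendritic cells towards oxysterols made from cholesterol.

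Library totals lay between 98663008 and 102896605 estimated counts, so depth differed little. Levels are given as CPM, the counts scaled to a common library total. Cd8a, a chain of the CD8 receptor, lay between 1569 and 2562 CPM, and none of the 10 T cell markers was at 0 in any library. RNA of other cells was present too. Siglech, a receptor of plasmacytoid dendritic cells, was at 4.56, 2.33 and 1.60 CPM in the asGM1-positive libraries from Flt3L Panc02 tumours, against 289.9, 262 and 253 CPM in asGM1-negative ones. The Panc02 libraries held 1.75, 3.10 and 0.0901 CPM in the asGM1-positive gate, against 70.1, 40.4 and 43.00 CPM in the asGM1-negative gate. The summed level of 12 macrophage and monocyte markers stood highest in Panc02 asGM1-positive replicate 1, at 3211 CPM, while the other libraries lay between 376 and 1678 CPM.

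RefSeq promoter windows on GRCm38.p6 matched 4 of the 7 genes, namely S1pr4, S1pr5, Klf2 and Gpr183. The deposited counts were made on mm39, so these coordinates are not those of the counts. The 250 bases before the start of Klf2 (chr8:72318812-72319061, plus strand), S1pr5 (chr9:21248444-21248693, minus strand) and S1pr4 (chr10:81500138-81500387, minus strand) are shown because Klf2 was called in all 4 pairwise comparisons, while S1pr5 and S1pr4 encode the S1P receptors listed beside S1PR1. They run 5′ to 3′ along the gene, and capitals mark matches to the MEF2 motif or to the core CACCC of KLF factors on either strand (GGGTG on the other).
Klf2: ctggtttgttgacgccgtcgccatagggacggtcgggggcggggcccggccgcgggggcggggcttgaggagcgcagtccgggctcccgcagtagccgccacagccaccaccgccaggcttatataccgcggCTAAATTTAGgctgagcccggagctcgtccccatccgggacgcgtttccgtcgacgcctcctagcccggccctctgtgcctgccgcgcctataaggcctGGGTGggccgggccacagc
S1pr5: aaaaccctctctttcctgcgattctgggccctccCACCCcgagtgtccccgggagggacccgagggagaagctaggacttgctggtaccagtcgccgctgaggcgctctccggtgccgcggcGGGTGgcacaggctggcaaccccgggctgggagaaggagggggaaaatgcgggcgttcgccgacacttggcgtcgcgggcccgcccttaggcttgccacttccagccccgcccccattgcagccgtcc
S1pr4: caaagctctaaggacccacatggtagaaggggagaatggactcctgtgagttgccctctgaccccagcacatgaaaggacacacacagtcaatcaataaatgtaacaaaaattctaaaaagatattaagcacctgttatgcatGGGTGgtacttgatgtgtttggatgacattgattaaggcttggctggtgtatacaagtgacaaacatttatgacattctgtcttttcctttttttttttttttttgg
In Klf2 the MEF2 motif stood at bases -118 to -109 from the start and matched on both strands. MEF2 factors are known activators of KLF2. That motif was in 2.92% of 32851 windows of the same length. The core CACCC occurred 1 time in Klf2, 2 times in S1pr5, 1 time in S1pr4 and 0 times in Gpr183, and 52% of all windows held it. The FOXO motif GTAAACA or its reverse complement was in none of these 4 windows and in 3.17% of all windows. The MEF2 and CACCC matches of Klf2 did not overlap. These matches describe letters only.

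The first comparison asks how asGM1-positive cells differ from asGM1-negative cells of one tumour type. In both tumour types the asGM1-positive libraries held fewer transcripts of S1pr1, Klf2 and Ccr7, and in Flt3L Panc02 tumours Cd69 and S1pr5 fell as well. S1pr4 and Gpr183 were not called between the gates. In Flt3L Panc02 tumours 5 of the 7 genes were called lower and 0 higher by the edgeR quasi-likelihood test, adjusted over all genes tested by Benjamini-Hochberg, where 5.83% of all genes were lower and 2.77% higher. In Panc02 tumours 3 of 7 were lower and 0 higher, against 0.843% of all genes lower and 0.049% higher. The median log2 fold change of the 7 was -1.30 in Flt3L Panc02 and -1.09 in Panc02 tumours, beside -0.01 and 0.02 over all genes tested. In bulk RNA, fewer cells of a type and less RNA per cell cannot be told apart.

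**Figure D1:**
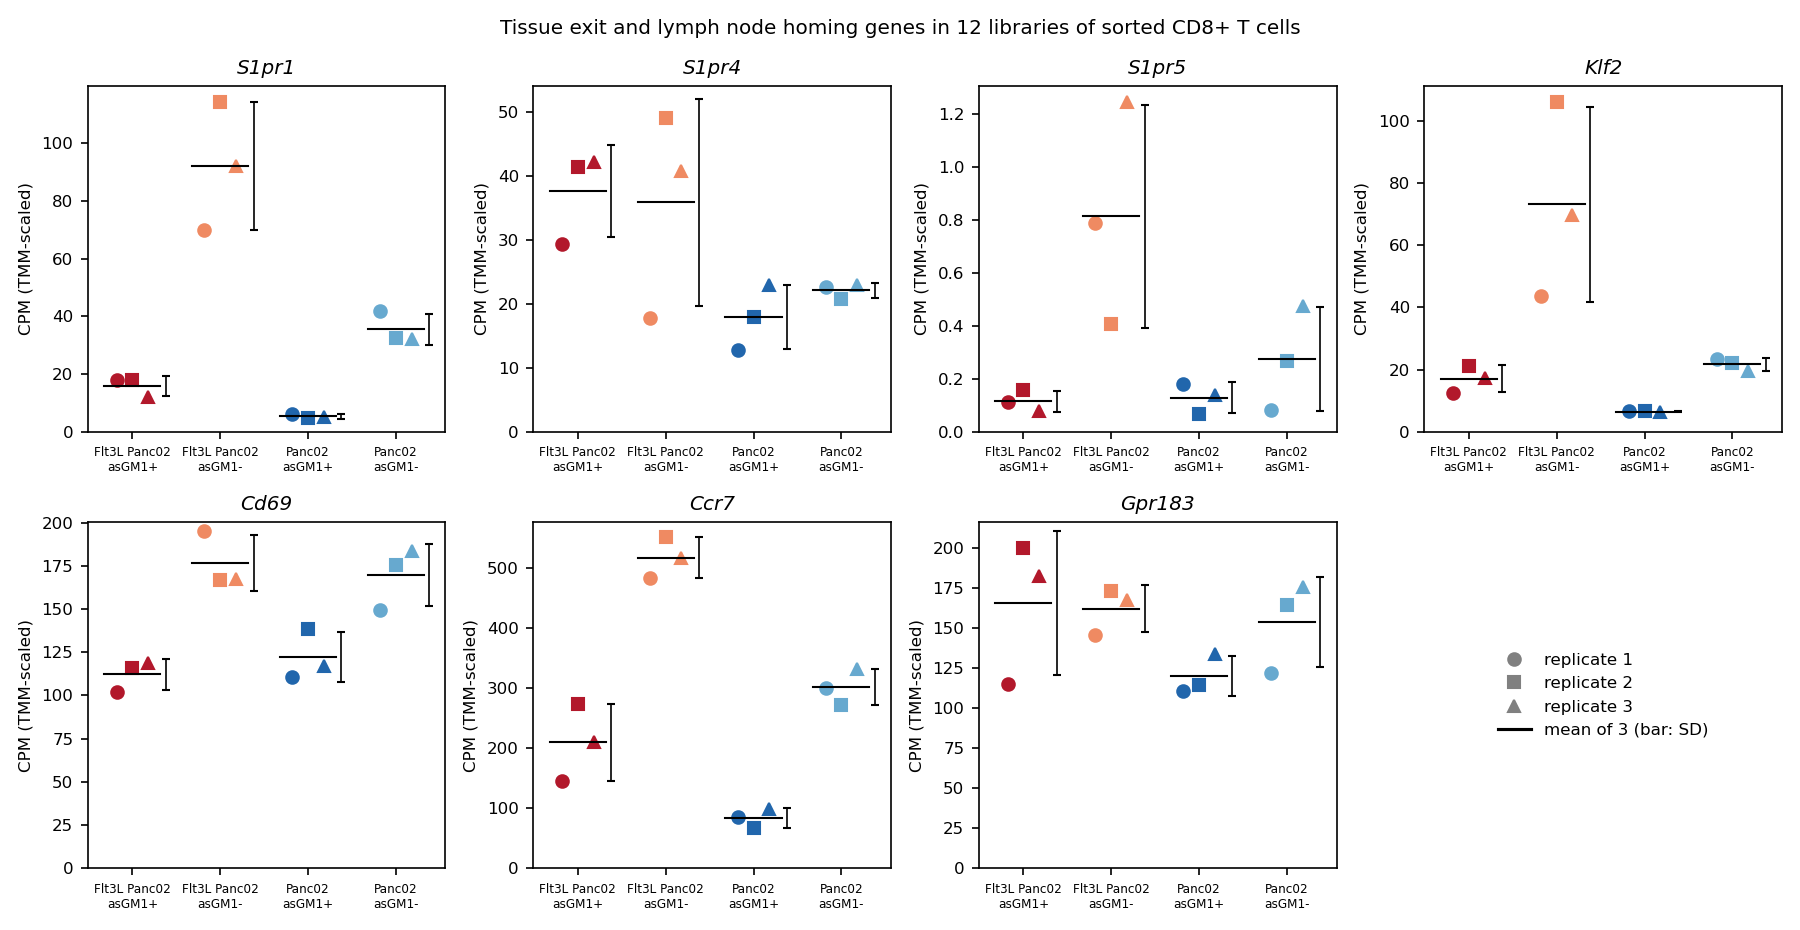
CPM (linear axes from 0) of the 7 genes in each library, with circles, squares and triangles for replicates 1, 2 and 3, a line at the mean of 3 and a bar for the SD. S1pr1, Klf2 and Ccr7 averaged highest in asGM1-negative libraries of Flt3L Panc02 tumours and lowest in asGM1-positive libraries of Panc02 tumours, while S1pr4 and Gpr183 overlapped between gates.

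S1pr1 (ENSMUSG00000045092), the main receptor for leaving tissues, had the largest fitted fold change of the 7 genes in Panc02 tumours and the largest after S1pr5 in Flt3L Panc02 tumours. In Flt3L Panc02 tumours S1pr1 was at 17.9, 18.1 and 12.05 CPM in asGM1-positive replicates 1, 2 and 3, against 69.8, 114 and 92.3 CPM in asGM1-negative replicates. In Panc02 tumours it was at 6.28, 4.64 and 5.24 CPM in asGM1-positive replicates, against 41.7, 32.4 and 32.3 CPM in asGM1-negative ones. The gates did not overlap in either tumour type. The log2 fold change was -2.52 ± 0.22 (SE, n = 3 against 3, edgeR adjusted p = 0.000103) in Flt3L Panc02 tumours and -2.72 ± 0.22 (edgeR adjusted p = 0.000223) in Panc02 tumours. In Panc02 tumours, where libraries of the same number deviated together, asGM1-positive libraries were 6.64-, 6.97- and 6.16-fold lower than the asGM1-negative library of the same number. All 4 groups lay apart in their S1pr1 ranges, in the order Flt3L Panc02 asGM1-negative, Panc02 asGM1-negative, Flt3L Panc02 asGM1-positive and Panc02 asGM1-positive.

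S1pr4 (ENSMUSG00000044199), a receptor found mainly on blood cells, had no call between the gates. In Flt3L Panc02 tumours S1pr4 was at 29.4, 41.3 and 42.2 CPM in asGM1-positive replicates, against 17.7, 49.05 and 40.8 CPM in asGM1-negative replicates. Panc02 tumours gave 12.8, 18.03 and 22.97 CPM in the asGM1-positive and 22.6, 20.8 and 22.97 CPM in the asGM1-negative gate. The gates overlapped in both tumour types. The log2 fold changes were 0.07 ± 0.31 (SE, edgeR adjusted p = 0.923) in Flt3L Panc02 and -0.30 ± 0.32 (edgeR adjusted p = 0.869) in Panc02 tumours. The first changed sign without asGM1-negative replicate 1, the lowest library of its group (-0.26), without asGM1-positive replicate 2 (-0.0032) or 3 (-0.017), and by limma-voom (-0.10). Every pair of neighbours in the order of the 4 groups overlapped.

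Scaled to exon length, the balance of S1pr4 and S1pr1 differed in description between the gates. In CPM per kilobase, the level of S1pr4 averaged 15.8 ± 2.999 and that of S1pr1 5.26 ± 1.13 in the asGM1-positive gate of Flt3L Panc02 tumours (SD, n = 3). The asGM1-negative libraries averaged 15.03 ± 6.81 CPM per kilobase for S1pr4 and 30.2 ± 7.30 for S1pr1. The Panc02 asGM1-positive libraries averaged 7.52 ± 2.12 CPM per kilobase for S1pr4 and 1.77 ± 0.273 for S1pr1, against 9.28 ± 0.489 and 11.6 ± 1.78 in the asGM1-negative ones. The mean of S1pr4 thus stood above that of S1pr1 in both asGM1-positive groups and below it in both asGM1-negative groups, with no test between the genes.

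S1pr5 (ENSMUSG00000045087), the receptor by which natural killer cells leave bone marrow and lymph nodes, was close to the limit of detection. It had 11, 15 and 7 estimated counts in asGM1-positive replicates of Flt3L Panc02 tumours, against 82, 44 and 132 in asGM1-negative replicates. The Panc02 libraries held 19, 7 and 14 estimated counts in the asGM1-positive and 9, 27 and 47 in the asGM1-negative gate. The read length is not given in the labels, and the worth of a sequenced fragment, about 2.71 counts, was inferred from the spacing of small values in the table. On that estimate the floor of 3 fragments was 8.1 counts, or 0.08 CPM, and 1 asGM1-positive library of each tumour type lay under it. S1pr5 levels averaged 0.116 ± 0.0396 CPM (SD, n = 3) in the asGM1-positive gate and 0.814 ± 0.421 CPM in the asGM1-negative gate of Flt3L Panc02 tumours, without overlap. The log2 fold change was -2.79 ± 0.70 (SE, edgeR adjusted p = 0.0297) in Flt3L Panc02 tumours and -1.09 ± 0.67 (edgeR adjusted p = 0.661) in Panc02 tumours, where the gates overlapped. The call in Flt3L Panc02 tumours ended without asGM1-negative replicate 3 (edgeR adjusted p = 0.0995) and without asGM1-positive replicate 1, 2 or 3 (edgeR adjusted p = 0.0818, 0.0617 and 0.0974).

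Klf2 (ENSMUSG00000055148), the activator of S1pr1 transcription in T cells, fell in asGM1-positive cells of both tumour types. In Flt3L Panc02 tumours Klf2 was at 12.6, 21.1 and 17.4 CPM in asGM1-positive replicates, against 43.7, 106 and 69.7 CPM in asGM1-negative replicates. In Panc02 tumours it was at 6.67, 6.53 and 6.23 CPM in asGM1-positive replicates, against 23.5, 22.2 and 19.5 CPM in asGM1-negative ones. Neither tumour type had overlapping gates, and the asGM1-positive libraries of Panc02 tumours were nearly equal. The log2 fold change was -2.10 ± 0.28 (SE, edgeR adjusted p = 0.00126) in Flt3L Panc02 and -1.75 ± 0.28 (edgeR adjusted p = 0.0102) in Panc02 tumours. The call in Panc02 tumours ended without asGM1-positive replicate 2, with a log2 fold change of -1.75 (edgeR adjusted p = 0.0559). It also ended without both Panc02 libraries numbered 1, whose macrophage and monocyte markers were highest in their groups, with -1.71 (edgeR adjusted p = 0.103). In the order of the 4 groups, Panc02 asGM1-negative and Flt3L Panc02 asGM1-positive libraries overlapped, and the other neighbours did not.

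Cd69 (ENSMUSG00000030156), whose protein takes S1PR1 off the surface, fell in asGM1-positive cells of Flt3L Panc02 tumours, with a smaller fold change than S1pr1. There Cd69 was at 102, 116 and 119 CPM in asGM1-positive replicates, against 195, 167 and 168 CPM in asGM1-negative replicates. In Panc02 tumours it was at 111, 138 and 117 CPM in asGM1-positive replicates, against 149.6, 176 and 184 CPM in asGM1-negative ones. The gates did not overlap in either tumour type, though the difference was called only in Flt3L Panc02 tumours. Its log2 fold change was -0.65 ± 0.12 (SE, edgeR adjusted p = 0.00762) in Flt3L Panc02 tumours and -0.47 ± 0.12 (edgeR adjusted p = 0.12) in Panc02 tumours. DESeq2 and limma-voom also called the difference in Panc02 tumours, with adjusted p = 0.0153 and 0.0293. By gate the Cd69 ranges lay apart, and by tumour type they overlapped.

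Ccr7 (ENSMUSG00000037944), the receptor for entry into lymph nodes through CCL19 and CCL21, had the highest mean level per length of the 7 genes in all 4 groups. It averaged 106 ± 32.4 CPM per kilobase (SD, n = 3) in the asGM1-positive and 261 ± 17.2 in the asGM1-negative gate of Flt3L Panc02 tumours. The Panc02 gates averaged 42.4 ± 8.13 CPM per kilobase in asGM1-positive libraries, where the range overlapped that of Gpr183, and 152 ± 14.99 in asGM1-negative libraries. Per library, Ccr7 was at 145, 273 and 210.3 CPM in asGM1-positive replicates of Flt3L Panc02 tumours, against 483, 551 and 517 CPM in asGM1-negative replicates. Within this tumour type the asGM1-positive replicates lay farther apart than the asGM1-negative ones, and the gates did not overlap. In Panc02 tumours Ccr7 was at 85.6, 66.9 and 98.9 CPM in asGM1-positive replicates, against 301, 272 and 332 CPM in asGM1-negative ones, again without overlap. The log2 fold change was -1.30 ± 0.21 (SE, edgeR adjusted p = 0.00327) in Flt3L Panc02 and -1.85 ± 0.21 (edgeR adjusted p = 0.00137) in Panc02 tumours. In the order of the 4 groups, Panc02 asGM1-negative and Flt3L Panc02 asGM1-positive libraries overlapped for Ccr7.

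Gpr183 (ENSMUSG00000051212), the gene of EBI2, showed no call between the gates. In Flt3L Panc02 tumours Gpr183 was at 115, 200.4 and 182 CPM in asGM1-positive replicates, against 146, 173 and 168 CPM in asGM1-negative replicates. Panc02 tumours gave 111, 115 and 134 CPM in the asGM1-positive gate, against 122, 164 and 176 CPM in the asGM1-negative gate. The gates overlapped in both tumour types, as did all neighbours in the order of the 4 groups. The log2 fold change was 0.03 ± 0.19 (SE, edgeR adjusted p = 0.942) in Flt3L Panc02 and -0.36 ± 0.19 (edgeR adjusted p = 0.583) in Panc02 tumours, and the first changed sign, to -0.03, with a filter of 5 CPM in 3 libraries. Per length, Gpr183 averaged 57.5 ± 15.6 CPM per kilobase (SD, n = 3) in the asGM1-positive and 56.2 ± 5.06 in the asGM1-negative gate of Flt3L Panc02 tumours.

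**Figure D2:**
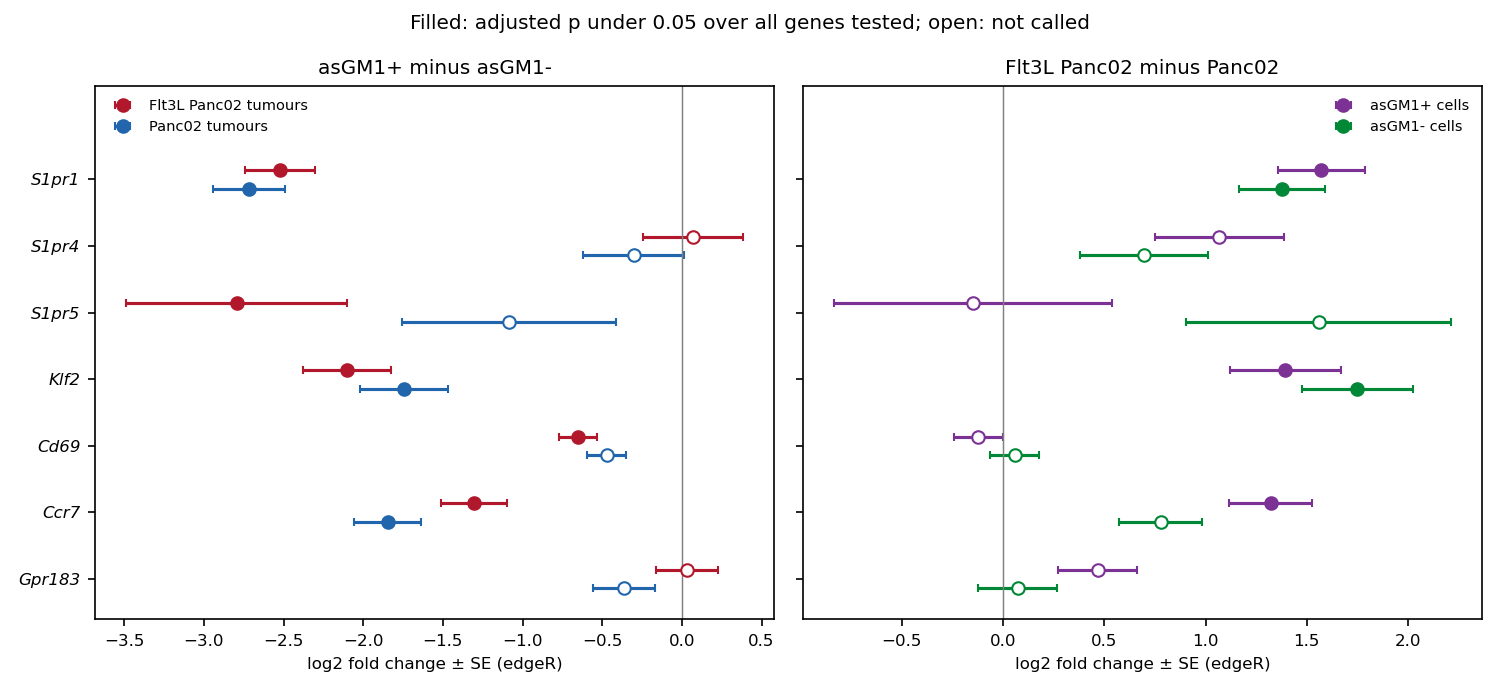
Log2 fold changes with SE from edgeR for the 7 genes, asGM1-positive minus asGM1-negative cells on the left and Flt3L Panc02 minus Panc02 tumours on the right. Filled points were called over all genes tested. S1pr1, Klf2 and Ccr7 stand left of 0 in both tumour types in the gate comparison, and Cd69 stands near 0 in the comparison of tumour types.

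Counted by ranges, the gates did not overlap for 5 of the 7 genes in Flt3L Panc02 tumours and 4 of 7 in Panc02 tumours, all lower in asGM1-positive cells. Over all genes tested, 17.3% and 8.92% were lower without overlap. Whether the gate effect differed between the tumour types was tested by the interaction of gate and tumour type. None of the 7 genes was called by edgeR, DESeq2 or limma-voom, where edgeR called 0.367% of all genes tested. By edgeR 0 of 7 had an unadjusted p under 0.05, against 3030 of 20411 genes tested. At such shares, 0 of 7 says little about these genes as a set. The interaction was 0.19 ± 0.30 for S1pr1, -0.36 ± 0.38 for Klf2, 0.54 ± 0.29 for Ccr7 and -0.18 ± 0.17 for Cd69 on the log2 scale (± SE), positive where the change in Flt3L Panc02 tumours was the more positive. S1pr5 had -1.71 ± 0.94 (edgeR adjusted p = 0.424), so its call in Flt3L Panc02 tumours is not shown to differ from Panc02 tumours. The interaction of Klf2 was 0.01 without Flt3L Panc02 asGM1-negative replicate 2, its highest library.

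The second comparison asks how cells of one gate differ when the tumour expresses Flt3L, and it uses the same libraries as the gate comparisons. S1pr1 and Klf2 were higher in cells of Flt3L Panc02 tumours than of Panc02 tumours in both gates, and Ccr7 was higher in asGM1-positive cells. Of the 7 genes, 3 were called higher and 0 lower in asGM1-positive cells, against 2.05% of all genes tested higher and 4.2% lower. In asGM1-negative cells 2 were higher and 0 lower, against 1.86% of all genes higher and 1.84% lower. The median log2 fold change of the 7 was 1.07 in asGM1-positive and 0.78 in asGM1-negative cells, beside -0.03 and 0.00161 over all genes. The ranges of the tumour types did not overlap for 4 of 7 genes in asGM1-positive and 3 of 7 in asGM1-negative cells, all higher in Flt3L Panc02 tumours, where 14.2% and 13.8% of all genes were higher without overlap.

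S1pr1 averaged 16.02 ± 3.45 CPM (SD, n = 3) in Flt3L Panc02 and 5.39 ± 0.830 CPM in Panc02 tumours in the asGM1-positive gate, a log2 fold change of 1.57 ± 0.22 (SE, edgeR adjusted p = 0.00579). In the asGM1-negative gate S1pr1 averaged 92.1 ± 22.2 CPM in Flt3L Panc02 and 35.5 ± 5.41 CPM in Panc02 tumours, a log2 fold change of 1.38 ± 0.21 (edgeR adjusted p = 0.00844). Every library of Flt3L Panc02 tumours thus lay above every Panc02 library of the same gate for this gene. Klf2 averaged 17.04 ± 4.28 CPM in Flt3L Panc02 and 6.48 ± 0.224 CPM in Panc02 tumours in the asGM1-positive gate, with 1.39 ± 0.27 on the log2 scale (edgeR adjusted p = 0.0173). The asGM1-negative gate held 73.2 ± 31.4 CPM of Klf2 in Flt3L Panc02 and 21.7 ± 2.04 CPM in Panc02 tumours, with 1.75 ± 0.27 on the log2 scale (edgeR adjusted p = 0.00877). Klf2 did not overlap between tumour types in either gate. Ccr7 averaged 209 ± 64.2 CPM in Flt3L Panc02 and 83.8 ± 16.1 CPM in Panc02 tumours in the asGM1-positive gate, with 1.32 ± 0.21 on the log2 scale (edgeR adjusted p = 0.00752). In the asGM1-negative gate Ccr7 stood at 517 ± 33.99 CPM in Flt3L Panc02 and 302 ± 29.7 CPM in Panc02 tumours without overlap, with 0.78 ± 0.20 on the log2 scale (edgeR adjusted p = 0.0571), a difference that DESeq2 and limma-voom called (adjusted p = 0.00541 and 0.0119).

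Several of these calls ended under other settings. In asGM1-positive cells the calls of S1pr1, Klf2 and Ccr7 between tumour types ended in a fit to the 6 compared libraries alone (edgeR adjusted p = 0.0571, 0.0571 and 0.0589), where their log2 fold changes were 1.59, 1.41 and 1.34. Over all genes tested, that fit called 1 gene, against 1276 in the main fit, so the loss was not particular to these genes. The call of Klf2 also ended without Flt3L Panc02 replicate 2 or 3 (edgeR adjusted p = 0.0707 and 0.0592), without Panc02 replicate 1 or 2 (0.055 and 0.065) and without both Panc02 libraries numbered 1 (0.0653). In asGM1-negative cells the calls of S1pr1 and Klf2 ended without Panc02 replicate 2 (edgeR adjusted p = 0.0514 for S1pr1 and 0.0514 for Klf2).

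The other 4 genes were not called between tumour types by edgeR. S1pr4 averaged 37.6 ± 7.16 CPM (SD, n = 3) in Flt3L Panc02 and 17.9 ± 5.06 CPM in Panc02 tumours in the asGM1-positive gate without overlap, a log2 fold change of 1.07 ± 0.32 (SE, edgeR adjusted p = 0.0687). DESeq2 and limma-voom called it, with adjusted p = 0.0102 and 0.0133. In asGM1-negative cells its log2 fold change was 0.70 ± 0.32 (edgeR adjusted p = 0.244), with overlap. Cd69 averaged 112 ± 8.91 CPM in Flt3L Panc02 and 122 ± 14.5 CPM in Panc02 tumours in the asGM1-positive gate, and 177 ± 16.3 against 169.6 ± 17.8 CPM in the asGM1-negative gate. Its log2 fold changes of -0.12 ± 0.12 and 0.06 ± 0.12 were within the spread of the libraries. Gpr183 had 0.47 ± 0.19 in asGM1-positive and 0.07 ± 0.19 in asGM1-negative cells (edgeR adjusted p = 0.165 and 0.885). S1pr5 had -0.15 ± 0.69 in asGM1-positive and 1.56 ± 0.65 in asGM1-negative cells (edgeR adjusted p = 0.924 and 0.206).

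Across the 12 libraries the genes were also set beside each other, as a description. The libraries fall into 4 groups, so a Pearson correlation of log2(CPM + 0.5) mostly reflects the group levels, and it has no p. S1pr1 correlated with Klf2 at 0.96 and with Ccr7 at 0.96, and Klf2 with Ccr7 at 0.95. Cd69 correlated with S1pr1 at 0.71, and S1pr4 with S1pr1 at 0.44. The genes whose pattern was most like S1pr1 among 9709 compared included Tdrp (r = 0.99) and Itgb7 (r = 0.98), an integrin chain of gut homing. For Klf2 they included Trp53inp1 (r = 0.98) and Tcf7 (r = 0.98), the gene of TCF1, which acts in naive and memory cells. For Ccr7 they were Cd40lg, which encodes CD40 ligand and is also on the CD4 marker list (r = 0.99), the SLAM family receptor gene Slamf6 (r = 0.98) and Tcf7 (r = 0.98). The patterns nearest to S1pr4 were those of Dgkz (r = 0.97), the gene of a diacylglycerol kinase, Evl (r = 0.96), an actin regulator gene, and Fchsd1 (r = 0.95). Cd69 was nearest to Gpr146 (r = 0.95), Gbp10 (r = 0.93) and Tnfrsf13b (r = 0.92). Gpr183 was nearest to Tmub2 (r = 0.94), Wdr45 (r = 0.93) and Evi2a (r = 0.90). S1pr5 was nearest to Dapp1 (r = 0.92), Trim30d (r = 0.89) and Serp1 (r = 0.86), at levels where single fragments move the value.

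**Figure D3:**
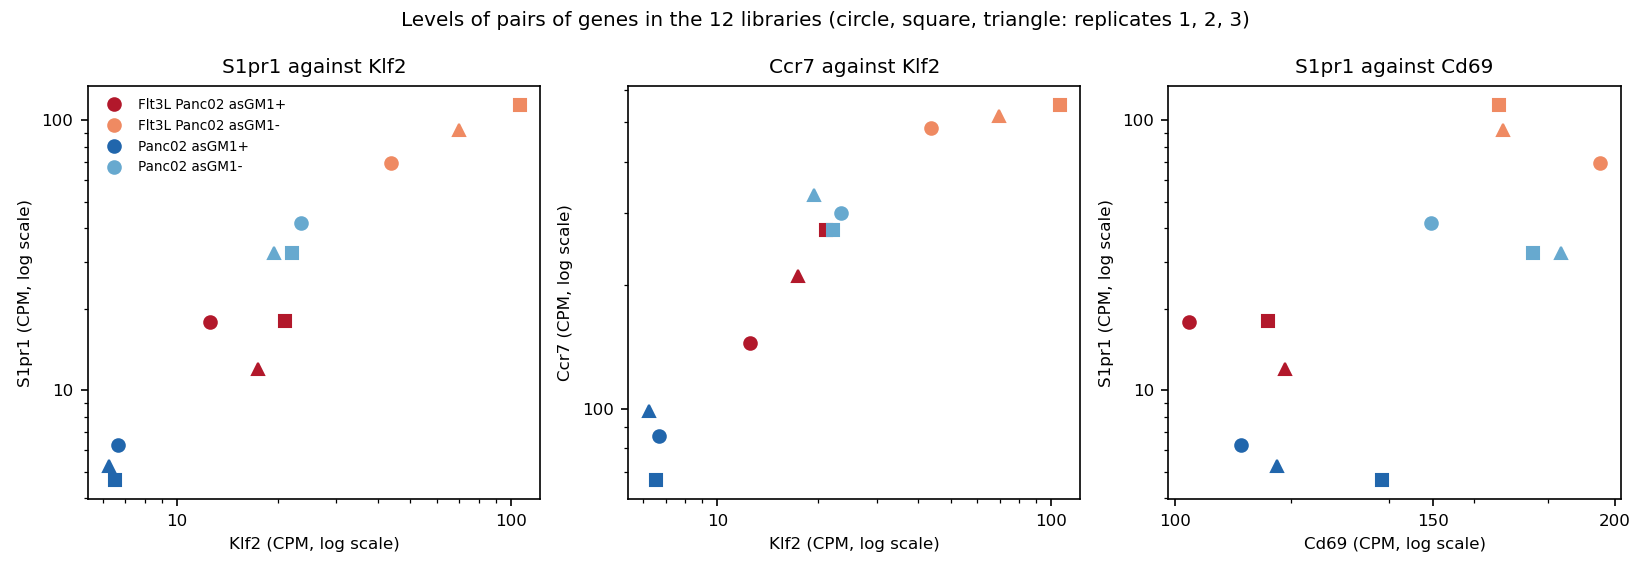
Levels of S1pr1 against Klf2, Ccr7 against Klf2 and S1pr1 against Cd69, in CPM on log axes, with 1 point per library and the groups by colour. S1pr1 and Ccr7 run along with Klf2 over the 4 groups, whereas against Cd69 the libraries separate by gate on the Cd69 axis, and by tumour type within each gate on the S1pr1 axis.

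Other genes of these pathways were followed in lists. Over all 20411 genes tested, 5178 had an unadjusted edgeR p under 0.05 between gates in Flt3L Panc02 and 2040 in Panc02 tumours. Between tumour types 4973 did in asGM1-positive and 4137 in asGM1-negative cells. Counts at that threshold in the gene and marker lists below stand beside these. Of 10 tested genes for S1P production, export and breakdown and for other S1P receptors, edgeR called 0 in each of the 5 comparisons. Between the gates 0 of the 10 had an unadjusted p under 0.05 in either tumour type, and DESeq2 and limma-voom called 0 as well. Between tumour types 3 had an unadjusted p under 0.05 in asGM1-positive and 1 in asGM1-negative cells, where DESeq2 and limma-voom called 1 lower. The median log2 fold change of the 10 between gates was -0.04 in Flt3L Panc02 and 0.16 in Panc02 tumours. S1pr2, the receptor that restrains migration of germinal centre cells, averaged 20.6 ± 0.827 CPM (SD, n = 3) in the asGM1-positive and 17.8 ± 1.26 CPM in the asGM1-negative gate of Flt3L Panc02 tumours, with 0.21 ± 0.15 on the log2 scale (SE, edgeR adjusted p = 0.409).

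Of 13 genes of S1P receptor signalling and desensitisation, 2 rose and 1 fell in asGM1-positive cells of Flt3L Panc02 tumours and 10 were not called, with a median log2 fold change of 0.29. In Panc02 tumours edgeR, DESeq2 and limma-voom called 0 of 13, and 0 had an unadjusted p under 0.05 by edgeR. Those that rose were Gnai2, the inhibitory G protein subunit through which S1PR1 signals, at 0.47 ± 0.10 on the log2 scale (SE, edgeR adjusted p = 0.0126), and Coro1a, an actin regulator, at 0.44 ± 0.12 (edgeR adjusted p = 0.0477). Gna13, the G protein subunit through which S1PR2 signals, had -0.43 ± 0.09 (edgeR adjusted p = 0.0157). By tumour type 1 of 13 was higher in each gate, Coro1a in asGM1-positive cells at 0.48 ± 0.12 (edgeR adjusted p = 0.0416) and Gna13 in asGM1-negative cells at 0.64 ± 0.09 (edgeR adjusted p = 0.00676).

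Of 14 FOXO and Kruppel-like regulators and related genes of resting T cells, 8 were lower, 0 higher and 6 not called in asGM1-positive cells of Flt3L Panc02 tumours, with a median log2 fold change of -0.61. In Panc02 tumours 2 were lower, 0 higher and 12 not called, with a median of -0.14. Il7r, a receptor chain for interleukin 7 and a FOXO1 target, averaged 29.4 ± 3.50 CPM (SD, n = 3) in the asGM1-positive and 81.6 ± 7.57 CPM in the asGM1-negative gate of Flt3L Panc02 tumours, a log2 fold change of -1.47 ± 0.17 (SE, edgeR adjusted p = 0.000669). Klf3, which encodes a repressor of the same family as KLF2, averaged 12.1 ± 0.621 CPM in the asGM1-positive and 42.7 ± 6.31 CPM in the asGM1-negative gate there, with -1.82 ± 0.36 (edgeR adjusted p = 0.0116). The pair Tcf7 and Lef1, transcription factor genes of naive cells, fell in both tumour types. Tcf7 had -1.58 ± 0.23 in Flt3L Panc02 and -2.05 ± 0.24 in Panc02 tumours (edgeR adjusted p = 0.00231 and 0.00148). Lef1 had -1.35 ± 0.17 in Flt3L Panc02 and -1.18 ± 0.17 in Panc02 tumours (edgeR adjusted p = 0.00098 and 0.0062). By tumour type, 2 of the 14 were higher and 1 lower in the asGM1-positive gate, and 4 higher and 0 lower in the asGM1-negative gate. Foxo3, the gene of another FOXO factor, was among those higher in asGM1-negative cells, with 0.77 ± 0.16 on the log2 scale (edgeR adjusted p = 0.0269).

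Among 9 other lymphoid homing receptors, 3 were lower, 0 higher and 6 not called in asGM1-positive cells in each tumour type, with medians of -0.53 in Flt3L Panc02 and -0.51 in Panc02 tumours on the log2 scale. Itgb7 had -1.57 ± 0.15 in Flt3L Panc02 and -1.73 ± 0.15 in Panc02 tumours (SE, edgeR adjusted p = 0.00016 and 0.000237). Ccr9, a receptor for gut homing that plasmacytoid dendritic cells also carry, averaged 1.12 ± 1.11 CPM (SD, n = 3) in the asGM1-positive and 117 ± 9.20 CPM in the asGM1-negative gate of Flt3L Panc02 tumours. Cxcr4, the receptor for CXCL12, averaged 9.60 ± 1.998 CPM in the asGM1-positive and 19.9 ± 6.77 CPM in the asGM1-negative gate there, a log2 fold change of -1.05 ± 0.29 (edgeR adjusted p = 0.0481). Cxcr5, a receptor for B cell follicles, had -2.48 ± 0.43 in Panc02 tumours (edgeR adjusted p = 0.019). By tumour type, 4 of 9 were higher in Flt3L Panc02 tumours in asGM1-positive and 2 of 9 in asGM1-negative cells, with 0 lower in either. Cxcr4 was among both, at 2.12 ± 0.31 and 1.79 ± 0.30 on the log2 scale (edgeR adjusted p = 0.00579 and 0.0117). Itga4, the partner chain of Itgb7, was among both too, at 1.21 ± 0.32 and 1.75 ± 0.33 (edgeR adjusted p = 0.0487 and 0.0175).

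Of 6 tested genes for CCR7 and EBI2 ligands, scavengers and oxysterol enzymes, 2 were lower, 0 higher and 4 not called in asGM1-positive cells of Flt3L Panc02 tumours, with a median of -1.002. In Panc02 tumours edgeR called 0 of 6, with 2 at an unadjusted p under 0.05, while DESeq2 called 1 lower and limma-voom 0. Cyp27a1, an enzyme of oxysterol synthesis, averaged 0.991 ± 0.183 CPM (SD, n = 3) in the asGM1-positive and 7.06 ± 1.02 CPM in the asGM1-negative gate of Flt3L Panc02 tumours, a log2 fold change of -2.83 ± 0.48 (SE, edgeR adjusted p = 0.00513). Ch25h, the first enzyme of EBI2 ligand synthesis, averaged 1.56 ± 0.390 CPM in Flt3L Panc02 and 5.94 ± 2.58 CPM in Panc02 tumours in the asGM1-positive gate, a log2 fold change of -1.92 ± 0.43 (edgeR adjusted p = 0.0258). It was lower in Flt3L Panc02 tumours in the asGM1-negative gate as well, at -2.24 ± 0.44 (edgeR adjusted p = 0.0212).

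Tissue residence genes did not move as 1 group. Of 14 tested, 2 were higher, 2 lower and 10 not called in asGM1-positive cells of Flt3L Panc02 tumours, and 1 was lower in Panc02 tumours. Those higher were Cxcr6, a chemokine receptor gene, at 0.78 ± 0.12 (SE, edgeR adjusted p = 0.00354), and Itga1, the collagen-binding integrin chain CD49a, at 1.17 ± 0.21 (edgeR adjusted p = 0.00575). Itgae, the integrin chain CD103, was lower, at -1.91 ± 0.34 in Flt3L Panc02 and -2.12 ± 0.34 in Panc02 tumours (edgeR adjusted p = 0.00634 and 0.0115). P2rx7, a receptor for extracellular ATP, was lower in Flt3L Panc02 tumours, at -3.30 ± 0.62 (edgeR adjusted p = 0.00816). Of 18 immediate early and activation genes, edgeR called 0 between the gates in either tumour type, with 3 at an unadjusted p under 0.05 in each. Over all 20411 genes tested, 5178 were under 0.05 in Flt3L Panc02 but 2040 in Panc02 tumours. Of the 18, DESeq2 called 2 and limma-voom 2 in Flt3L Panc02 tumours, and DESeq2 1 and limma-voom 2 in Panc02 tumours. By tumour type, edgeR called 3 of 18 higher and 0 lower in the asGM1-positive gate, among them Junb, a subunit of AP-1, with 1.01 ± 0.20 on the log2 scale (edgeR adjusted p = 0.018).

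Markers of other cell types moved with the gate beside S1pr1, Klf2, Ccr7 and Cd69. Of 11 plasmacytoid dendritic cell markers, 8 were lower and 0 higher in asGM1-positive cells in each tumour type. Their summed level was 1275 to 1952 CPM in asGM1-positive libraries, against 2274 to 3045 CPM in asGM1-negative libraries of Flt3L Panc02 tumours, and 894 to 1305 against 1274 to 1581 CPM in Panc02 tumours. The sum includes Ly6c2, which CD8+ T cells also express and which reached 1929 CPM. Of 6 CD4 and regulatory T cell markers, 4 in Flt3L Panc02 and 3 in Panc02 tumours were lower in asGM1-positive cells. Cd4 was at 4.43, 4.98 and 4.91 CPM in asGM1-positive replicates, against 22.99, 32.2 and 29.1 CPM in asGM1-negative replicates of Flt3L Panc02 tumours. The Panc02 gates held 3.13, 2.78 and 3.25 CPM of Cd4 in asGM1-positive replicates, against 8.36, 8.37 and 6.06 CPM in asGM1-negative ones. Foxp3, the regulatory T cell factor, was at 11.6, 6.92 and 5.29 CPM in asGM1-positive replicates, against 64.2, 48.5 and 72.7 CPM in asGM1-negative replicates of Panc02 tumours. The whole CD4 and regulatory list summed to 305 to 566 against 351 to 459.9 CPM in Flt3L Panc02 tumours and to 190.2 to 273 against 286 to 445 CPM in Panc02 tumours, in the same order of gates. Ctla4, which activated CD8+ T cells express too, made most of that sum. Of 12 conventional and mature dendritic cell markers, 5 in Flt3L Panc02 and 1 in Panc02 tumours were lower in asGM1-positive cells. They summed to 19.6 to 27.8 CPM in asGM1-positive libraries, against 105 to 122 CPM in asGM1-negative libraries of Flt3L Panc02 tumours, and to 25.4 to 99.96 against 51.99 to 88.01 CPM in Panc02 tumours. Other lists stood higher in the asGM1-positive gate of Flt3L Panc02 tumours. The macrophage and monocyte sum was 673 to 923 CPM there, against 376 to 604 CPM in the asGM1-negative gate, with 1 of 12 markers called higher and 1 lower by edgeR and 5 higher and 1 lower by DESeq2. The T cell sum was 13976 to 18271 CPM, against 11317 to 12669 CPM in the asGM1-negative gate, with 2 of 10 markers called higher and 0 lower. Neither sum overlapped between these gates. In Panc02 tumours the macrophage and monocyte sum was 871 to 3211 CPM in the asGM1-positive gate, against 764 to 1265 CPM in the asGM1-negative gate, and edgeR called 0 markers of either list, with 6 macrophage and monocyte and 0 T cell markers at an unadjusted p under 0.05. DESeq2 also called 0 of both lists there, and limma-voom called 2 macrophage and monocyte markers higher. The part of these cells in the differences between gates was not tested.

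By tumour type, 6 of the 11 plasmacytoid markers were higher and 0 lower in Flt3L Panc02 tumours in the asGM1-negative gate, and 2 were higher and 0 lower in the asGM1-positive gate. Of 10 T cell markers 3 were higher in the asGM1-positive gate of Flt3L Panc02 tumours, where the list summed to 13976 to 18271 CPM, against 10272 to 12327 CPM in Panc02 tumours. Of 12 macrophage and monocyte markers 3 were lower there, with sums of 673 to 923 CPM in Flt3L Panc02 and 871 to 3211 CPM in Panc02 tumours. In the asGM1-negative gate the macrophage and monocyte sums did not overlap, at 376 to 604 CPM in Flt3L Panc02 and 764 to 1265 CPM in Panc02 tumours, where edgeR called 0 of 12 with 9 at an unadjusted p under 0.05, DESeq2 called 5 lower and limma-voom 2 lower. Of 6 CD4 and regulatory markers, 2 were higher and 0 lower in Flt3L Panc02 tumours in the asGM1-positive gate, and 1 was higher and 1 lower in the asGM1-negative gate. In the asGM1-negative gate Cd4 averaged 28.1 ± 4.68 CPM (SD, n = 3) in Flt3L Panc02 and 7.59 ± 1.33 CPM in Panc02 tumours. Foxp3 went the other way in that gate, at 26.6 ± 8.40 CPM in Flt3L Panc02 and 61.8 ± 12.3 CPM in Panc02 tumours, without overlap. Of 12 conventional and mature dendritic cell markers, 0 were higher and 3 lower in the asGM1-positive gate, and 2 higher and 1 lower in the asGM1-negative gate, where their sums did not overlap, at 105 to 122 CPM in Flt3L Panc02 and 52 to 88 CPM in Panc02 tumours. The part of these cells in the differences of S1pr1, Klf2 and Ccr7 between tumour types was not tested.

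B cells, endothelial cells and natural killer cells, in which S1pr1, Klf2, Ccr7 or S1pr5 are known to be high, were checked too. Pax5, the defining transcription factor gene of B cells, was at 0 in 11 of 12 libraries and Ms4a1 in 10, while Cd79b and Blnk, both also known from plasmacytoid dendritic cells, made most of the B cell sum. That sum of 10 markers was 14.4 to 16.6 CPM in asGM1-positive libraries, against 47.1 to 62.8 CPM in asGM1-negative libraries of Flt3L Panc02 tumours, and 9.09 to 17.8 against 18.98 to 27.7 CPM in Panc02 tumours. Of 10 endothelial markers, edgeR called 0 between the gates, with 4 at an unadjusted p under 0.05 in Flt3L Panc02 and 2 in Panc02 tumours. In Flt3L Panc02 tumours DESeq2 called 1 higher and 2 lower, and limma-voom 0 higher and 3 lower. Both called 1 lower in Panc02 tumours. They summed to 22.8 to 31.1 CPM in asGM1-positive libraries, against 32.4 to 56.4 CPM in asGM1-negative libraries of Flt3L Panc02 tumours, and to 13.1 to 17.1 against 23.7 to 37.2 CPM in Panc02 tumours. Pecam1 made most of these sums, with means of 17.4 against 32.5 CPM in Flt3L Panc02 and 10.9 against 20.6 CPM in Panc02 tumours. The median log2 fold change of the 10 markers between gates was 0.66 in Flt3L Panc02 and -0.23 in Panc02 tumours. Cdh5, the defining endothelial cadherin gene, reached at most 2.56 CPM and was at 0 in 3 libraries. Cdh5 averaged 0.218 CPM in the asGM1-positive and 2.16 CPM in the asGM1-negative gate of Flt3L Panc02 tumours. In Panc02 tumours it averaged 0.0384 against 0.508 CPM. Kdr averaged 0.651 against 6.57 CPM in Flt3L Panc02 and 0.588 against 3.50 CPM in Panc02 tumours. Others on the list, such as Egfl7, averaged higher in the asGM1-positive gate of Flt3L Panc02 tumours (5.34 against 2.76 CPM). Of 9 natural killer cell markers, 1 was higher and 0 lower in asGM1-positive cells of Flt3L Panc02 tumours. In Panc02 tumours edgeR called 0, with 2 at an unadjusted p under 0.05, while DESeq2 and limma-voom each called 1 higher and 1 lower. The sum of the 9 overlapped between gates, at 421 to 607 against 485 to 588 CPM in Flt3L Panc02 tumours and 292 to 494 against 357 to 521 CPM in Panc02 tumours. Cd160 alone averaged 378 CPM in the asGM1-positive and 432 CPM in the asGM1-negative gate of Flt3L Panc02 tumours. In Panc02 tumours it averaged 186 and 310 CPM. Ncr1, also on the list, reached at most 1.25 CPM, so the sum follows Cd160 far more than Ncr1. Of 7 tested neutrophil markers edgeR called 0 between the gates, with 2 at an unadjusted p under 0.05 in Flt3L Panc02 and 4 in Panc02 tumours, where DESeq2 called 2 higher and limma-voom 1 higher. The part of B, endothelial and natural killer cells in the differences was not tested.

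**Figure D4:**
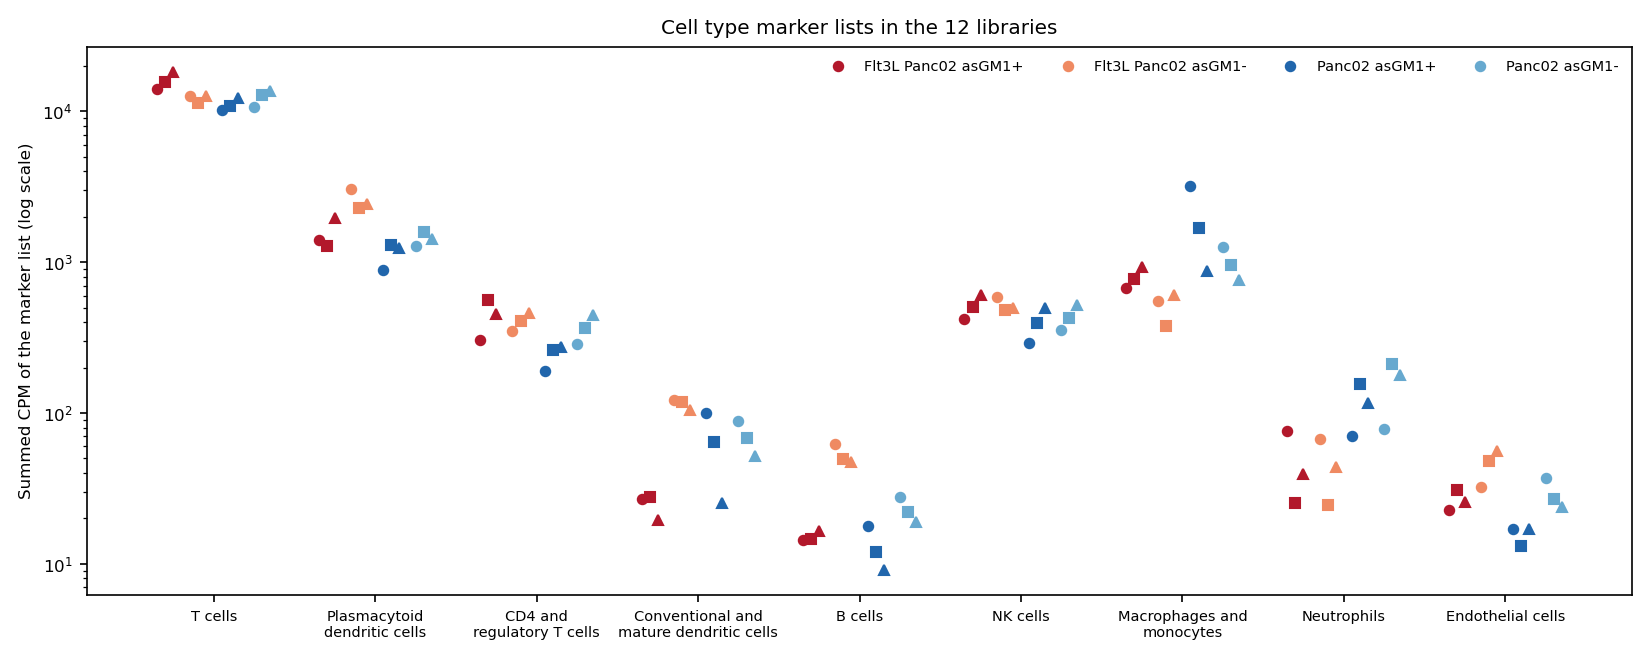
Summed CPM (log axis) of each marker list in the 12 libraries, with the groups by colour and replicates by symbol as in the plot of the 7 genes. The dendritic and B cell sums are highest in asGM1-negative libraries of Flt3L Panc02 tumours, and the macrophage and monocyte sum is highest in replicate 1 of the asGM1-positive libraries of Panc02 tumours, at 3211 CPM.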

How the data were processed

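The sample titles of the 12 libraries gave groups and replicate numbers. RNA came from TRIzol extraction, per the labels' protocols, and the kits named are TruSeq mRNA and SMARTer ultra low input, with no word on strand. HISAT2, StringTie and mm39 are named, per the submitters' processing notes, with versions and annotation not given in the sources used here. Estimated counts per gene, already whole numbers, are what the authors deposited. With no read length given, the worth of a fragment was inferred: steps of 2.67 to 2.75 counts described the small values equally well, and the floor of 3 fragments covers counting error only.

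The test was that of edgeR 4.0.16 (R 4.3.3) on the counts (TMM factors, filterByExpr by group, 1 quasi-likelihood fit of 4 group means, calls at an adjusted p under 0.05) and its script was tested on simulated data. The SE is the absolute log2 fold change divided by the square root of F. CPM use TMM-scaled totals, and CPM per kilobase use GENCODE M21 exon lengths, an annotation of another build. Alternatives were DESeq2 1.42.0, voom of limma 3.58.1, other factors and filters, smaller fits, a replicate block, and single libraries left out. Dividing counts by the fragment step and leaving out both Panc02 libraries numbered 1 were added after seeing the data.

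Same-numbered Panc02 libraries of the 2 gates deviated together over 9710 genes (r = 0.46, 0.44 and 0.47), which pairs them from the data, not from the labels. Members and lists were chosen with earlier results of these data known. Named genes are the 7 and up to 4 called genes per list by p. They also include the 3 patterns most like each member among genes of at least 5 CPM. Defining markers, some other markers and S1pr2 were named after their values were seen. Not every gene that met the rule is reported.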

Additional observations from a re-analysis of the deposited data

How the results depend on the processing

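The gate calls of S1pr1 and Ccr7 held in both tumour types under every alternative run, and the 0 interaction calls among the 7 genes held too. Of 583 values of the 7 genes under alternatives, 530 kept direction and side of the threshold, 17 lost a call, 15 gained one and 21 changed sign, none of which was a call. The cause of these moves was not tested, except that smaller fits hold fewer libraries.

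Sign changes on the log2 scale were as follows. Gpr183 between gates in Flt3L Panc02 tumours was -0.033 with a filter of 5 CPM in 3 libraries, -0.026 by limma-voom, -0.0017 with the replicate block and -0.12 to 0.24 with single libraries left out. S1pr4 there was -0.10 by limma-voom and -0.26 to 0.36 with single libraries left out. Between tumour types in asGM1-negative cells, Cd69 was -0.033 by limma-voom, -0.025 without both Panc02 libraries numbered 1 and -0.025 to 0.12 with single libraries left out, and Gpr183 was -0.069 without both and -0.069 to 0.18. S1pr5 in asGM1-positive cells was 0.45 by limma-voom, 0.17 without both and -0.46 to 0.17 with single libraries left out, and the interaction of Klf2 was -0.62 to 0.013.

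Of the 7 genes, 4 to 5 were called between gates in Flt3L Panc02 tumours with single libraries left out and 2 to 3 in Panc02 tumours. Between tumour types 0 to 3 were called in asGM1-negative and 2 to 4 in asGM1-positive cells. Limma-voom called 5 in asGM1-negative cells, and a fit to the compared libraries alone called 0 in asGM1-positive cells.

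Counts over all genes moved more. Between gates in Flt3L Panc02 tumours (1754 genes) DESeq2 called 3197, limma-voom 2805, the compared libraries alone 1013 and single libraries left out 792 to 1994. In Panc02 tumours (182) these were 611, 831, 109 and 99 to 230, and 109 without both libraries numbered 1. Between tumour types in asGM1-negative cells (756) there were 390 with no filter, 2236 by DESeq2, 3536 by limma-voom and 99 to 1013 with single libraries left out. In asGM1-positive cells (1276) there were 691 with no filter, 3003 by DESeq2, 3120 by limma-voom, 1 in the compared libraries alone, 404 without both and 256 to 1776. The interaction (75) had 40 with no filter, 137 with the 5 CPM filter, 891 by DESeq2, 786 by limma-voom, 204 with the block, 27 without both and 1 to 264.

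The replicate block was fitted for all comparisons. In Panc02 tumours, where the numbers pair the gates, it called the same number of members, 3, and 248 of all genes. The same-numbered correlations were 0.0862, 0.566 and -0.0386 between gates in Flt3L Panc02 tumours, 0.0648, -0.0156 and 0.0923 between tumour types in asGM1-positive cells and -0.44, -0.256 and -0.239 in asGM1-negative cells, so pairing was not shown there, and its absence was not shown either. With the block, S1pr5 in Flt3L Panc02 tumours had -2.69 (edgeR adjusted p = 0.0806) and S1pr4 in asGM1-positive cells 1.08 (0.033). S1pr5 was low in every library, and the 5 CPM filter removed it.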
